A study of Rattus norvegicus with 3 samples.

Results

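Small nucleolar RNA (snoRNA) and small Cajal body RNA (scaRNA) genes were described in RNA from extracellular vesicles of rat adipose-derived mesenchymal stem cells. The members were all genes that the deposited table types as snoRNA or scaRNA, 1635 of 29684 genes. Of these, 1599 were typed snoRNA and 36 scaRNA. By symbol, 90 were box C/D genes (SNORD), 47 were box H/ACA genes (SNORA) and 5 were Cajal body genes (SCARNA). The other 1493 carry no such symbol, and most have only a locus name. The descriptions in the table place 279 of these unnamed genes in box C/D, 1150 in box H/ACA and 34 in the Cajal body class. A member was counted as inside a protein-coding gene where both of its ends lie within that gene, which held for 605 members. For 369 of these, such a gene lay on the same strand, and for 236 only on the opposite strand. The remaining 1030 lay outside.

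The vesicles, membrane-bound particles that cells release, were collected from the medium of wild-type cells that had been taken from inguinal fat and cultured. The 3 libraries form 1 group, numbered as replicates 1 to 3 and made from 3 vesicle batches, and the labels give no strain, age or sex of the rats and no other agent. Whether separate animals or cultures stand behind the batches is not stated, so the spread between libraries may be technical. RNA was measured by total RNA sequencing after removal of ribosomal cDNA, and with 1 group every comparison is between genes of the same libraries.

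Small nucleolar RNAs guide the chemical modification of other RNAs inside protein particles. Box C/D RNAs direct ribose methylation by fibrillarin and box H/ACA RNAs direct pseudouridylation by dyskerin, mostly on ribosomal RNA, while Cajal body RNAs act on spliceosomal RNAs. In mammals most are cut from introns of host genes, many of which encode ribosomal or nucleolar proteins, and some are further processed to microRNAs.

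Reference entries join some of these RNAs to microRNAs, which by itself does not show processing. In the deposited table, 8 microRNA genes overlapped 8 members, all on the same strand. The hairpins below are shown because their RefSeq entries join a microRNA to a small nucleolar or Cajal body RNA, or share its seed. They are RefSeq hairpins of build GRCr8, printed 5′ to 3′, and capitals mark the seed, bases 2 to 8 of each mature microRNA. All other positions in the text are those of the deposited table, on build mRatBN7.2.
Snora19 (miR-3084d), chr7:60665891-60665959, plus strand: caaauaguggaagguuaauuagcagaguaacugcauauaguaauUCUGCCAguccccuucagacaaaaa
Mir3084a, chr19:55718537-55718603, minus strand: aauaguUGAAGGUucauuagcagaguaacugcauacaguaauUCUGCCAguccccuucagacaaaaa
Mir664-2, chr13:99324650-99324708, plus strand: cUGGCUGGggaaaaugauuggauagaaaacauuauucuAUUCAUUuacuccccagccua
Snora36c (miR-664-1), chr18:48150366-48150424, plus strand: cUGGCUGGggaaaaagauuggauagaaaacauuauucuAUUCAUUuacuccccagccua
Scarna15 (miR-1839), chr1:144893856-144893919, plus strand: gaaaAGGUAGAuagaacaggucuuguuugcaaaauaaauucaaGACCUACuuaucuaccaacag
The Snora19 and Mir3084a entries share the seed UCUGCCA, and Mir664-2 and Snora36c share both of their seeds. The small nucleolar RNA that lies over Snora19's microRNA, also named Snora19, had 0.00, 0.62 and 1.54 FPKM in replicates 1, 2 and 3. FPKM is the authors' level per length and per library total. The microRNA gene itself had 0.00, 0.00 and 0.08 FPKM, so both were low in every library. A different pair stood higher. LOC120093054, described as SNORA19, had 48.6, 63.5 and 83.8 FPKM, and the microRNA gene ENSRNOG00000069629, which overlaps it by 65 bases, had 4.75, 8.90 and 19.4 FPKM. Both were lowest in replicate 1 and highest in replicate 3. Reads of overlapping genes cannot be told apart from these values.

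Most members were at a low level. The median member had 3.55, 3.02 and 3.33 FPKM in replicates 1, 2 and 3 (mean 3.30 ± 0.264, SD, n = 3). The median gene of all had 4.61 ± 0.388 FPKM. Odorant, vomeronasal and taste receptor genes, which encode chemosensory receptors and served as the background here, had a median of 2.65 ± 0.301 over 1348 genes. Members thus sat near that background in FPKM. The median span was 129 bases for members and 4525.5 for receptor genes. How well these libraries captured RNAs as short as the members was not tested, so a low FPKM need not mean scarcity in the vesicles. Members held 0.182% ± 0.0250 of the counts and 2.38% ± 0.356 of the summed FPKM. Of the members, 1113 (68.1%) were above 0 in all 3 libraries, against 91.0% of all genes. Counts behind these values were small: a gene of 70 bases at the receptor median has 1.58 to 1.78 counts in a library and a gene of 130 bases 2.93 to 3.31, and 1008 of 1635 members reached 10 counts over the 3 libraries. Across the 1635 members, Pearson's r between libraries was 0.603 to 0.610 on the log2(FPKM + 1) scale, a description of genes that share libraries.

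Among the classes, box C/D genes with a symbol had a median of 3.34, 2.78 and 3.52 FPKM and box H/ACA genes 3.46, 2.01 and 2.15. The box C/D median was the higher in replicates 2 and 3 and the lower in replicate 1. On the log2(FPKM + 1) scale the difference was 0.27 ± 0.28 (SD, n = 3; exact two-sided sign-flip test, p = 0.5), and its sign turned to -0.45 when unnamed members were classed by their description. With 3 libraries that test cannot go below 0.25. Members inside protein-coding genes had a median of 3.04 ± 0.257 FPKM and those outside 3.53 ± 0.351. The difference on the log2(FPKM + 1) scale was -0.16 ± 0.02, lower inside in 3 of 3 libraries (exact p = 0.25), and it was 0.00 on the log2(CPM + 1) scale. Members lay 0.61 ± 0.05 above microRNA genes and 0.73 ± 0.02 above spliceosomal small nuclear RNA genes in log2(FPKM + 1), each of them in 3 of 3 libraries (exact p = 0.25 each). Without the SNORA17 and SNORA48 families, those differences were 0.14 and 0.27. Adjusted over the 5 such comparisons of this kind, the lowest p was 0.3125.

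**Figure D1:**
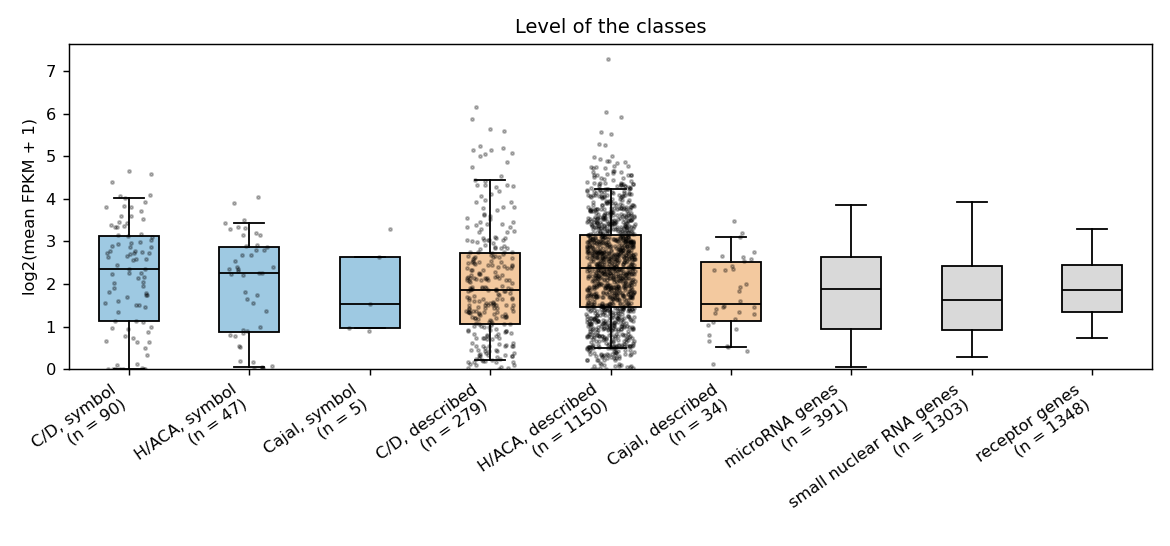
Boxes show the distribution of log2(mean FPKM + 1) over the genes of each class, with the median, the quartiles and whiskers to the 5th and 95th percentiles; points are single members. Classes by symbol are blue, unnamed members by description orange and other gene classes grey. The classes overlap widely, and the highest points are unnamed members.

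Each member was then tested against the receptor background. A gene was called where its level was over 4-fold the median receptor gene of each library, with a Benjamini-Hochberg adjusted p under 0.05 over all genes (edgeR's quasi-likelihood test). Of all genes, 4.01% were called (1191 of 29684), and of the members 2.20% (36 of 1635), so the members' share of calls lay below that of all genes. At an unadjusted p under 0.05 there were 99 members (6.06%) and 1770 of all genes (5.96%), nearly equal shares. Of microRNA genes 1.53% were called and of small nuclear RNA genes 2.76%, against 0.445% of the receptor genes themselves. None of the 142 members with a box or Cajal symbol was called by edgeR (0 of 142), 3 had an unadjusted p under 0.05, limma called 1 and DESeq2 0. All 36 called members were unnamed (2.41% of 1493 unnamed members). Their descriptions put 13 in SNORD116, 13 in SNORA17 and 6 in SNORA48, with 1 each in SNORA16B/SNORA16A, SNORA19, SNORA26 and SNORA81. By RefSeq type, 22 of 1039 members typed as small nucleolar RNA were called (2.12%) and 5 of 377 typed as pseudogenes (1.33%). Of the 186 members without a RefSeq match, 9 were called (4.84%). By place, 27 of the 1030 members outside protein-coding genes were called (2.62%), among them the 13 SNORD116 genes. Of members inside, 7 of 236 on the opposite strand only (2.97%) and 2 of 369 on the same strand (0.542%) were called. Each of these shares lay below the 4.01% of all genes. Without replicate 3, 20 members were called (1.22%, against 2.69% of all genes). Without replicate 1 there were 34 (2.08% against 5.05%) and without replicate 2 there were 29 (1.77% against 3.34%). By limma 23 members were called (1.41% against 1.82% of all genes) and by DESeq2 20 (1.22% against 2.20%). Against the median microRNA gene the shares were 6.18% of members and 8.72% of all genes, and against the median nuclear protein-coding gene 0.612% and 1.89%. At 2-fold they were 11.4% and 19.8%, and at 8-fold 0.489% and 1.64%. With TMM scaling the share of all genes was 4.17%, with genes of at least 10 counts 4.38% and with unrounded counts 4.04%, against 2.20%, 3.57% and 2.08% of members. The members' share at an adjusted p was the lower in each of these settings, unlike that at an unadjusted p.

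The highest member was LOC120103261 (ENSRNOG00000053163), of the box H/ACA family SNORA16B/SNORA16A, on chromosome 5 from 144505211 to 144505346. It had 56.8, 219 and 185 FPKM in replicates 1, 2 and 3. Replicate 1 was far below the other libraries, yet far above the receptor median of 2.95 FPKM there. The fitted level was 5.83 above the background on the log2 scale (edgeR's quasi-likelihood test, adjusted p = 7.63e-06), and the gene ranked 166 of all genes by mean FPKM. It lies inside the long non-coding RNA gene LOC120102992, which had 8.51 ± 3.32 FPKM and was not called. The same gene holds 3 other members. LOC120103274, described as SNORA44, had 22.7, 8.01 and 20.8 FPKM, and Snora61 had 1.85, 13.1 and 14.6 FPKM. Snord99 had 0.05, 0.04 and 0.10 FPKM. In human the host of this group is the non-coding gene SNHG12. Members of 1 host thus differed widely in level, with only the SNORA16 member called.

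The 1 called member inside a called host was LOC120093054 (ENSRNOG00000061657), the SNORA19 gene described above, on chromosome 1 from 259917206 to 259917337. It was 4.55 above the background on the log2 scale (edgeR's quasi-likelihood test, adjusted p = 1.75e-05). It lies on the same strand within Eif3a, whose protein belongs to the translation initiation complex eIF3 and which had 507, 976 and 853 FPKM. The member's mean level was 8.38% of its host's.

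LOC120097990, a SNORA17 gene on chromosome 17 from 12216183 to 12216312, lay outside protein-coding genes and had 60.7, 52.3 and 66.2 FPKM. Its 3 values lay close together. LOC120102084, described as SNORA26, had 30.8, 57.3 and 46.5 FPKM, and LOC120096125, described as SNORA81, had 48.6, 35.7 and 29.3. Both lie on the strand opposite to a protein-coding gene, Ass1 and Vkorc1l1. At the edge of the call, LOC120102042 (44.1, 17.6 and 17.002 FPKM; adjusted p = 0.0380) and LOC120102049 (19.5, 24.7 and 24.9 FPKM; adjusted p = 0.0439) were inside it by edgeR. LOC120101273 (26.3, 18.2 and 22.8 FPKM; adjusted p = 0.0648) and LOC120100406 (12.3, 42.6 and 20.9 FPKM; adjusted p = 0.0664) were outside it by the same test.

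**Figure D2:**
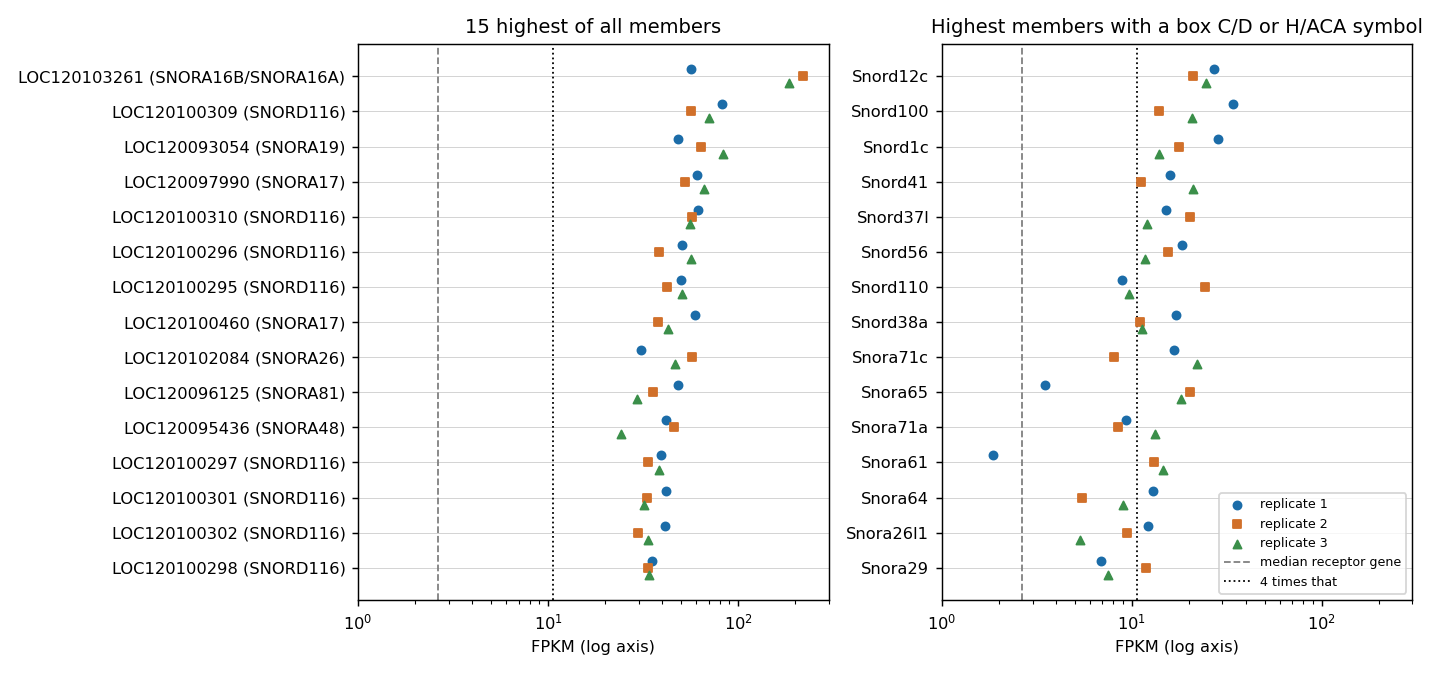
FPKM on a log axis for the 15 highest members (left, family in brackets) and for the 8 highest box C/D and 7 highest box H/ACA genes with a symbol (right); each marker is a library, and the lines mark the mean of the 3 median receptor levels and 4 times that. LOC120103261 lies furthest right and has its lowest value in replicate 1, while the members with a symbol lie around the 4-fold line.

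SNORD116 genes gave the highest share of calls among the families of at least 10 members. SNORD116 is a tandem family of orphan box C/D RNAs, with no known ribosomal target, from the imprinted region that is lost in Prader-Willi syndrome, and it is best known from brain. The table holds 36 copies on the minus strand of chromosome 1 between 110462563 and 111037527, and 13 (36.1%) were called against 4.01% of all genes. The family was singled out after its values were seen, so this share is a description. In order of position, a run was set from the first to the last copy with a mean of 10 FPKM or over. It went from copy 11 to copy 26, and all the calls fell within it. The 16 copies of the run had mean levels from 4.21 to 70.02 FPKM (median 33.6), and 15 were at 10 FPKM or over. The 10 copies before it had a median of 0.92 FPKM and a highest mean of 7.56. The 10 copies after it had a median of 0.83 FPKM and a highest mean of 7.45. Single values reached 14.7 FPKM before the run, in replicate 1, and 12.2 after it, in replicate 2. Copies outside the run have means under 10 FPKM by that rule, so the contrast with them is partly fixed by it. Their medians on both sides lay below that of the receptor genes. The run has 1 copy under 10 FPKM inside it, LOC120100329, at 4.71, 2.39 and 5.54 FPKM.

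Within the run, LOC120100309 was highest, with 82.6, 56.8 and 70.7 FPKM, 4.58 above the background on the log2 scale (edgeR's quasi-likelihood test, adjusted p = 1.02e-05). LOC120100310 followed with 61.2, 57.1 and 56.0 FPKM. LOC120100296 had 50.9, 38.4 and 56.7 FPKM, and LOC120100295, the first copy of the run, had 50.0, 42.5 and 50.5. Replicate 1 was not low in these genes, unlike in LOC120103261. Over the 36 copies, Spearman's rho between libraries was 0.858, 0.867 and 0.936, as a description, since copies share a cluster and libraries. The copies are spaced a median of 2.58 kb apart, but copies 11 and 12 lie 448 kb apart in this build. Copies of the family are related in sequence and their identity was not tested here, so reads may be shared between copies and the level of any 1 copy is uncertain. The number of copies called ranged from 10 to 12 when each library was left out, with limma 13 and with DESeq2 11.

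The neighbouring genes were low. Snrpn, which encodes a spliceosomal protein and lies on the same strand beside the cluster, had 1.895, 1.59 and 2.17 FPKM, and the long non-coding genes around it had means from 0.63 to 3.28, with none called. SNORD115, the other orphan family of the region, which in mouse and human has been studied for the serotonin receptor 2C transcript, had 38 copies with a median of 1.22 FPKM, a highest mean of 11.6 and 0 calls. SNORD113 and SNORD114, orphan box C/D RNAs of another imprinted region, had 76 copies in a cluster on chromosome 6, with a median of 2.70 FPKM, a highest of 20.9 and 0 calls. Of all genes 4.01% were called, so few calls are to be looked for in clusters of these sizes and nothing is read from the 0. Since the receptor median was 2.65 FPKM, the medians of these clusters lay around or below it.

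**Figure D3:**
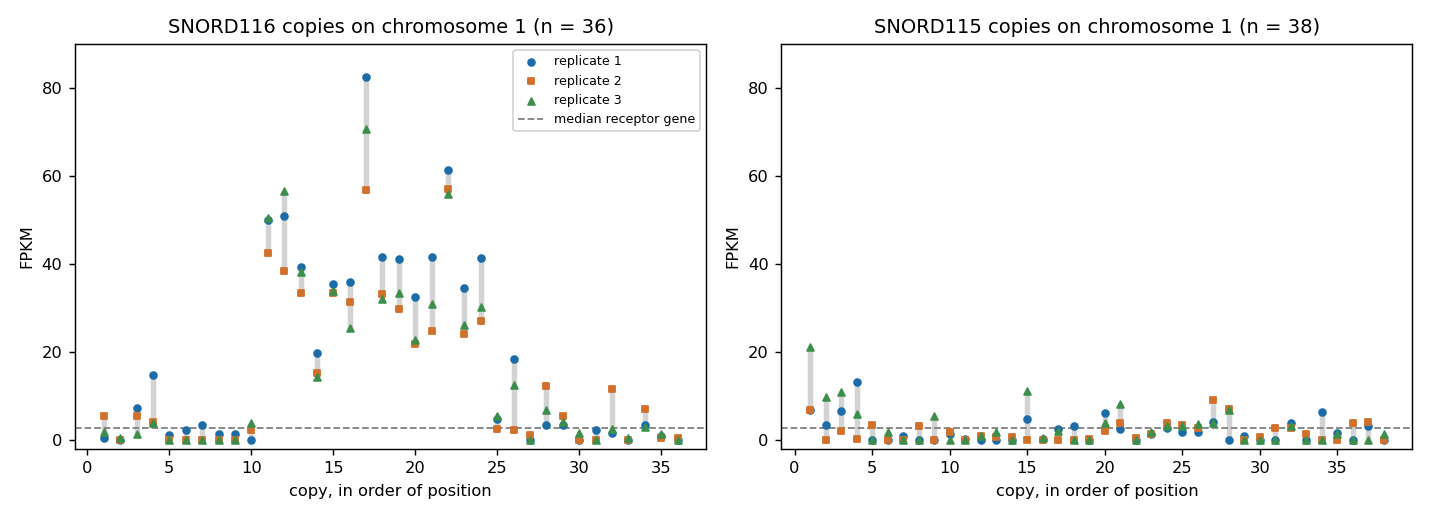
FPKM of each SNORD116 copy (left) and SNORD115 copy (right) in order of position on chromosome 1; markers are libraries, grey bars their range and the dashed line the mean of the 3 median receptor levels. SNORD116 copies 11 to 24 stand above the line in every library, and the other copies and SNORD115 are lower, with 1 or 2 libraries above 10 FPKM in a few copies and many values at 0.

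SNORA17 and SNORA48 were the families with the most members. SNORA17, a box H/ACA family, had 645 genes on 21 chromosomes with a median of 5.21, 3.76 and 4.29 FPKM. SNORA48 had 155 genes with a median of 8.32, 5.85 and 6.95 FPKM. Both medians were highest in replicate 1 and lowest in replicate 2. The receptor median had the same order (2.95, 2.34 and 2.65 FPKM), and its part in the result was not tested. Of SNORA17 genes 13 (2.02%) were called and of SNORA48 genes 6 (3.87%), against 4.01% of all genes, to which the SNORA48 share is close. Limma called 4 of 645 SNORA17 and 1 of 155 SNORA48 genes, against 1.82% of all genes. DESeq2 called 3 and 2, against 2.20% of all genes. Without replicate 1 edgeR called 12 and 6 (5.05% of all genes), and without replicate 2 it called 9 and 4 (3.34% of all genes). Without replicate 3 it called 3 and 3 (2.69% of all genes). In each of these settings the shares of both families lay below that of all genes. By RefSeq type, the median was 4.73 ± 0.988 FPKM over 421 SNORA17 genes annotated as small nucleolar RNA and 3.82 ± 0.560 over 221 annotated as pseudogenes. Copies of these families too can share reads.

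**Figure D4:**
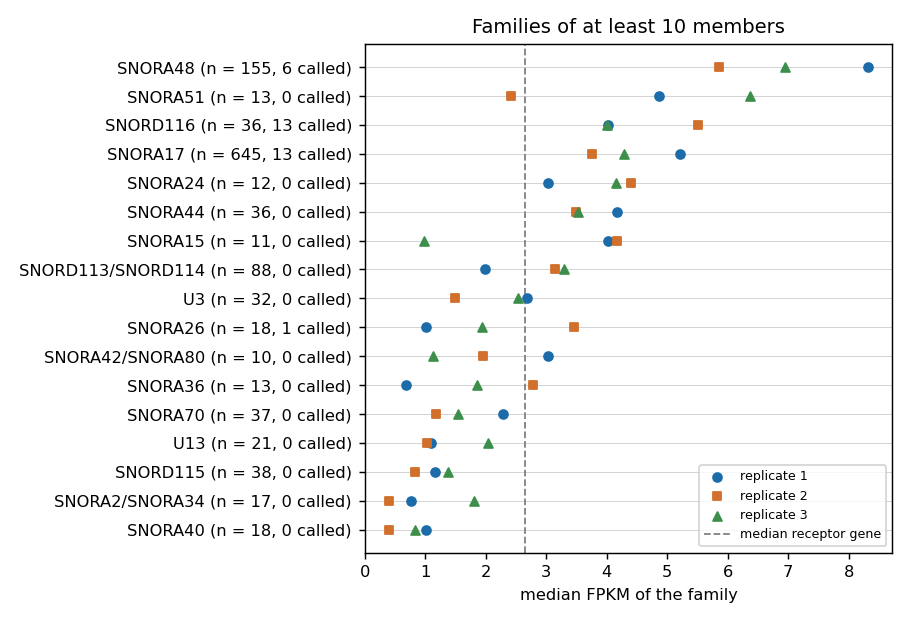
Median FPKM of each family of at least 10 members in each library, with the number of genes and of called genes in brackets; the dashed line is the mean of the 3 median receptor levels. SNORA48 is highest, and SNORD116 has 13 calls of 36 at a median close to that of SNORA17.

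Box C/D genes with a symbol reached at most 24.2 FPKM. Snord12c was highest, with 27.0, 20.9 and 24.6 FPKM in replicates 1, 2 and 3, which was 3.07 above the background on the log2 scale (edgeR's quasi-likelihood test, adjusted p = 0.0686; limma 0.0398). Snord100, which lies in the ribosomal protein gene Rps12, had 34.3, 13.9 and 20.7 FPKM. Snord1c had 28.6, 17.6 and 13.95 FPKM. In all 3 genes replicate 1 was the highest library, and the 3 values lay above the receptor median throughout. The other 7 of the 10 highest, which were Snord41, Snord37l, Snord56, Snord110, Snord38a, Snord46 and Snord15a, had means from 12.96 to 16.03 FPKM. Among box H/ACA genes Snora71c was highest with 16.6, 8.06 and 22.0 FPKM, and Snora65, in the ribosomal protein gene Rpl12, had 3.47, 20.3 and 18.1. The other 8 of the 10 highest (Snora71a, Snora61, Snora64, Snora26l1, Snora29, Snora5c, Snora81 and Snora62l1) had means from 7.82 to 10.4 FPKM. None of these passed edgeR's test.

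RNAs that act in the cutting of ribosomal RNA precursors had low FPKM as well, and how fully such short RNAs were captured was not tested. U3, which is needed for maturation of the small subunit RNA, had 32 genes with a median of 2.24 ± 0.649 FPKM and a highest mean of 14.8, but RefSeq types 19 of them as pseudogenes. The 12 typed as small nucleolar RNA had a median of 1.56, 2.11 and 5.42 FPKM. None of the U3 genes was called by edgeR (0 of 32, against 4.01% of all genes). Snord118 (U8), which acts in large subunit maturation, had 3.34, 3.57 and 6.55 FPKM. Snord14a and Snord14b (U14) had means of 3.47 ± 4.85 and 5.196 ± 2.42 FPKM, Snord22 (U22) 4.09 ± 3.84 and Snora73bl1, of the U17 type, 4.27 ± 3.07. Snord13, the guide of an acetylation in the small subunit RNA, had 0.00, 2.18 and 0.00 FPKM, and Snord13l1 had 2.36, 2.31 and 5.54. Genes described as U13 numbered 21, of which RefSeq types 9 as pseudogenes, with a median of 1.39 ± 0.563 FPKM and 0 calls. These levels lay around the receptor median, and the genes with a symbol rest on 0 to 14 counts a library.

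Of the Cajal body genes with a symbol, Scarna15, whose RefSeq hairpin is printed above, was highest with 15.8, 7.53 and 2.87 FPKM. Scarna10 had 4.67, 6.62 and 4.42 FPKM. Scarna18b had 3.34, 2.37 and 0.00 FPKM. Scarna15 spanned a wide range and its lowest library was near the receptor median, while Scarna10 varied little. Scarna3b had 0.97, 1.92 and 0.00 FPKM and Scarna18 had 0.00, 1.22 and 1.38. None of the 5 was called by edgeR (0 of 5, against 4.01% of all genes), and with so few genes nothing is read from the 0.

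Hosts and members were set side by side for the 369 members on the same strand within a protein-coding gene, which have 279 hosts. Members were lower than their host in all 3 libraries in 221 pairs and higher in 33. Over these pairs the median member lay 1.43 below its host on the log2(FPKM + 1) scale, and over all 605 pairs on either strand 0.95 ± 0.10 below (3 of 3 libraries; exact two-sided sign-flip test, p = 0.25). Of the hosts, 54 (19.4%) were called above the background, against 4.02% of nuclear protein-coding genes, and the members in called hosts had a median of 3.27 ± 0.211 FPKM against 2.50 ± 0.0361 in the others. Spearman's rho between member and host levels was 0.132, 0.084 and 0.123 in replicates 1, 2 and 3 over the 369 pairs, as a description, since members of 1 host share it.

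Ncl, which encodes nucleolin, had 1407, 2915 and 2328 FPKM. The member in it described as SNORA75, LOC120094881, had 12.5, 9.38 and 4.90 FPKM, 0.403% of its host's mean. The member described as SNORD20, LOC120094885, had 8.36, 5.56 and 2.77 FPKM, or 0.251%. Both were highest in replicate 1, where Ncl was lowest. Hosts with a ribosomal protein symbol gave 56 pairs in 28 genes. Among these hosts, Rps20-ps10 and Rpl39-ps13 carry pseudogene symbols although they are typed as protein-coding, and both were called. The hosts had a median of 149 ± 60.0 FPKM and 26 of 28 were called, against 4.02% of nuclear protein-coding genes. The members had a median of 3.34 ± 0.276 FPKM and 0 of 56 were called by edgeR. Of all genes 4.01% were called and of all members 2.20%, so few calls are to be looked for among 56. Nothing is read from the 0. In 53 of the 56 pairs the member was lower in all 3 libraries. Rpl13a, at 95.4, 197 and 195 FPKM, holds box C/D RNAs that in mouse cells have been linked to oxidative stress. Of these Snord33 had 0.98, 11.9 and 11.1 FPKM, Snord35a had 15.3, 9.45 and 5.19, and the member described as SNORD34, LOC120100340, had 3.64, 0.00 and 4.09. LOC120100339, described as of the Z195/SNORD33/SNORD32 family, had 0.20, 7.08 and 8.69 FPKM. Like Rpl13a, it and Snord33 were lowest in replicate 1. Snord35a was highest in that library, and LOC120100340 was lowest in replicate 2, so these members shared no common order.

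**Figure D5:**
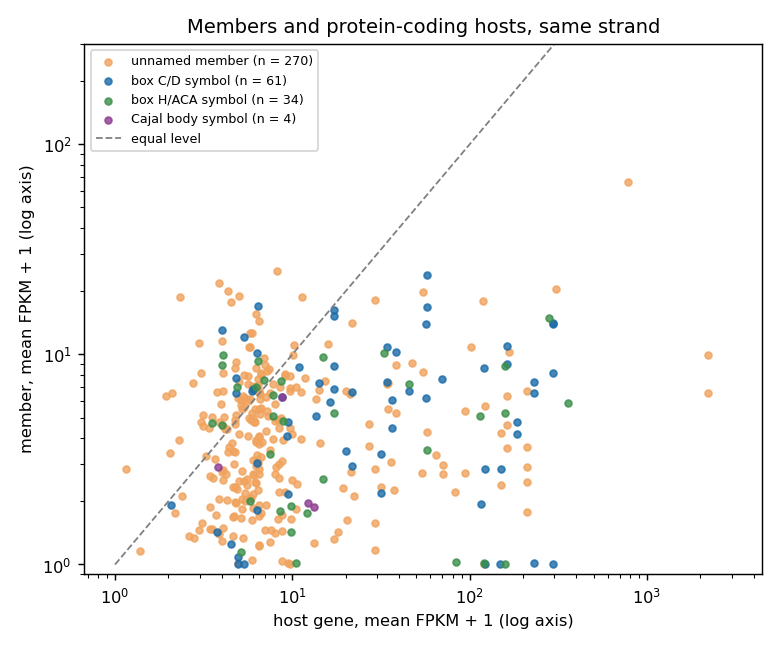
Mean FPKM + 1 of each member against that of its protein-coding host on the same strand (369 pairs, both axes logarithmic), coloured by class; the dashed line marks equal level. Most points lie below the line; the highest member is LOC120093054 at 65.3 FPKM and the highest host Ncl at 2217.

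Transcripts of the proteins that form or assemble these particles were measured for 23 of 24 listed genes, and 4 (Znhit6, Fbl, Nop58 and Nolc1) were called, 17.4% against 4.02% of nuclear protein-coding genes. The median of the list was 8.79 ± 0.585 FPKM, against 4.61 for all genes. Znhit6, an assembly factor of box C/D particles, had 174, 333 and 294 FPKM, 6.70 above the background on the log2 scale (edgeR's quasi-likelihood test, adjusted p = 3.81e-08). Fbl, the methyltransferase fibrillarin, had 37.4, 47.3 and 34.96 FPKM (adjusted p = 1.60e-05, edgeR). Nop58, a core protein of box C/D particles, had 19.8, 32.7 and 32.5 FPKM, and Nolc1, a nucleolar and Cajal body chaperone of both particle types, had 15.1, 15.5 and 19.0. Among the H/ACA proteins Nop10 had 15.5 ± 3.23 FPKM, Nhp2 12.3 ± 1.15 and Gar1 11.2 ± 4.92, and none of these 3 was called by edgeR. DESeq2 and limma called 2 of the 23 genes each.

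The cell type was checked with short marker lists. Of 5 mesenchymal stem cell markers, Itgb1 was called, and the list's summed level was 35.6 to 44.2 FPKM. The other 4 markers summed to 22.6, 23.4 and 23.5 FPKM in replicates 1, 2 and 3. Of 5 haematopoietic markers 0 were called by edgeR, with a summed level of 28.2, 24.96 and 27.2 FPKM and no marker at 0 in any library. Apart from Itgb1, the mesenchymal markers summed to less than the haematopoietic ones in every library. These sums are over 4 markers and 5, so they are not like for like. By the median marker, the full mesenchymal list had 6.26 ± 0.140 FPKM and the haematopoietic list 5.53 ± 0.123. Of nuclear protein-coding genes 4.02% were called, so few calls are to be looked for in lists of 5. Nothing is read from the 0 haematopoietic calls. The total of the counts was 5219920, 6786182 and 6618461 in replicates 1, 2 and 3.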

How the data were processed

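Total RNA of 3 vesicle libraries of 1 group was sequenced. Per the submitters' processing notes, cutadapt 1.9, FastQC and build mRatBN7.2 were used; the aligner, the counter and how strand and reads with several matches were handled remain unknown (not given in the sources used here). The table gives FPKM and counts for each gene and library, per the file headers. The deposited counts are estimated counts: in 3603 short genes, 99.5%, 99.5% and 99.7% of the counts in replicates 1, 2 and 3 equal the authors' FPKM times span times a library constant, rounded up (tolerance 1e-06 counts). They were therefore treated as estimates, with no counting intervals. Genes at 0 in every library are not among the rows.

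Members and lists were chosen with earlier results of these data known. Levels were fitted with edgeR 4.0.16 (R 4.3.3) over all genes, intercept only, with the count expected at the library's median receptor gene as offset. A threshold of 4-fold was tested one-sided. The function planned for it, glmTreat, takes no design of 1 column, so the same threshold was tested through the quasi-likelihood deviance. On simulated data the test called 16 of 50 genes raised 8-fold, 49 of 50 raised 16-fold and 0 of 29484 at the background. The raised genes were drawn from genes of all types and lengths. This recovery therefore does not say how often short members of few counts would be called. The genes at the background were simulated at 1-fold, well below the 4-fold threshold, so their 0 calls do not measure error at that threshold. A single dispersion of 0.2 was simulated, and the rounding up of estimated counts was not. Alternatives used limma 3.58.1, DESeq2 1.42.0, CPM, a pseudocount of 0.1 in place of 1, other backgrounds and filters, and each library left out. Differences between classes are of medians of log2(FPKM + 1), which understates differences of low genes. Named are the 10 highest box C/D and box H/ACA genes, the 5 highest unnamed members, every Cajal body symbol, members of known role, the genes at the edge of the call and hosts; 1 host is not reported here. SNORD116 copies, SNORA26 and SNORA81 genes, neighbours and other examples were added after their values were seen. RefSeq records matched 1449 members by identifier.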

Additional observations from a re-analysis of the deposited data

How the results depend on the processing

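Of the 36 called members, 8 were called under all 12 alternatives and 18 whenever 1 library was left out (20 to 34 calls, lowest without replicate 3). The count was 23 with limma, 20 with DESeq2, 101 against the median microRNA gene, 10 against the median nuclear protein-coding gene, 186 at 2-fold and 8 at 8-fold. It was 36 with TMM scaling and with genes of at least 10 counts, and 34 with unrounded counts, a setting chosen after seeing the data. The number of SNORD116 copies called was 10 to 14 except against the protein-coding background and at 8-fold, with 4 each. Differences below are on the log2 scale. Box C/D minus box H/ACA reversed to -0.0076 with CPM, -0.094 with genes of mean FPKM of at least 1, -0.057 with spans of 60 to 150 bases and -0.45 with classes from the description, the last chosen after seeing the data. Inside minus outside was 0.00 with CPM, -0.21 with a pseudocount of 0.1, -0.12 with the FPKM filter and -0.28 with hosts on the same strand. Members minus microRNA genes was 0.32 with CPM, 0.82 with the pseudocount, 0.32 with the filter, 0.68 with the span limits and 0.14 without SNORA17 and SNORA48. Members minus small nuclear RNA genes was 0.32, 1.01 and 0.46 with CPM, pseudocount and filter and 0.27 without those families, a choice made after seeing the data. Members minus hosts was -4.31, -1.22 and -0.54 with those 3 settings and -1.43 on the same strand. CPM is not per length, which by construction lowers short genes against hosts; the cause of the other shifts was not tested. With 1 library left out, these 5 differences were 0.15 to 0.42, -0.17 to -0.15, 0.58 to 0.63, 0.72 to 0.75 and -1.01 to -0.91. No paired analysis was possible because there is 1 group. Box motifs and 1 gene per set of identical sequences were not run, since no genome of this build was used here. Members of few counts limit what could be called: 1008 of 1635 reached 10 counts over the libraries.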
